A study of Mus musculus with 8 samples.

Results

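The RNA levels of 10 genes that process, protect and release the contents of cytotoxic granules were followed in CD8+ T cells from mouse tumours. The genes were chosen by name for their function, with earlier results of these data known, out of 20029 genes in the deposited table. All 10 were found and measured: Nkg7, Ctsw, Cst7, Lamp1, Ctsc, Ctsd, Unc13d, Rab27a, Stx11 and Serpinb9. The 8 libraries came from 4 Pglyrp1 knockout mice (KO libraries 1 to 4, allele B6.129S4-Pglyrp1tm1.1Lky/J) and 4 wild-type C57BL/6J mice (WT libraries 6 to 9). All mice carried a subcutaneous flank tumour of MC38-OVA, a colon carcinoma line that makes the model antigen ovalbumin, and every library was built from 1000 live cells sorted for CD45, TCRβ and CD8. Each mouse gave 1 library, so the spread between libraries holds both animal and technical variation, and the labels give neither the age of the mice nor the number of days between injection and sorting.

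Killer T cells store perforin and granzymes in lysosome-related granules. Cathepsin C trims the granzyme precursors into active enzymes inside these granules, and cystatin F, the product of Cst7, holds cathepsin C in check. On contact with a target cell the granules move to the synapse, dock through the small GTPase Rab27a, are primed by the Munc13 family protein that Unc13d encodes, and fuse with help from the SNARE protein syntaxin 11. In humans, loss of RAB27A, UNC13D or STX11 causes inherited immune disease with failing cytotoxicity. Serpinb9 encodes an inhibitor of granzyme B that protects the killer cell from its own granule contents.

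Levels are called TPM here, after the name of the deposited values, with each library rescaled to a sum of 1000000. TPM is a share of transcripts corrected for gene length. Whether the deposited values carry that correction could not be settled. Pglyrp1 was at 0 in every KO library, against 123 to 209.6 TPM in the WT libraries. The values of a library as deposited had sums of 2223162 to 3342847, with 11935 to 13300 genes above 0. Markers of CD8 T cells summed to 6330 to 7181 TPM in KO libraries, to 6435 and 6461 TPM in WT 6 and WT 9 and to 8657 and 8716 TPM in WT 7 and WT 8. Of these 11 genes Cd8b1 (log2 fold change -0.38) and Lck (-0.31) had the smallest p. Cd8b1 was at 1039 to 1329 TPM in KO and 1340 to 1728 TPM in WT libraries. It was the 1 gene of the 11 whose groups did not overlap, lower in KO, as for 2.40% of all genes tested. Markers of other cells were also present. Myeloid markers were high in KO 3 and KO 4. Naive and memory T cell markers were high in WT 6 and WT 9. Their 12 genes summed to 496 to 1474 TPM in KO libraries, and to 2726 and 2610.2 TPM in WT 6 and WT 9 against 623 and 692 TPM in WT 7 and WT 8. The abundant member Ccr7 and the members of smallest p, Il7r and Lef1, had log2 fold changes of -0.57, -0.46 and -0.97. The 8 CD4 and regulatory T cell markers summed to 219 to 382 TPM in KO and 72.7 to 259.99 TPM in WT libraries. Ctla4 and Tnfrsf4 were the highest of them in every library (log2 fold changes 0.58 and 1.498). Cd4 was at 4.50 to 66.7 TPM in KO and 0.393 to 2.25 TPM in WT libraries. Foxp3 was at 2.52 to 7.56 TPM in KO and 2.03 to 5.51 TPM in WT libraries. The 9 B and plasma cell markers in the table summed to 11.5 to 58.6 TPM in KO libraries, to 58.5 and 55.5 TPM in WT 6 and WT 9 and to 8.10 and 11.1 TPM in WT 7 and WT 8. Cd79b, Cd22 and Fcrla had log2 fold changes of -0.90, -1.02 and 1.81.

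None of the 10 granule machinery genes passed an adjusted p of 0.05 between KO and WT cells (limma, adjusted over all 10732 genes tested, smallest adjusted p = 0.421), a threshold that 0.028% of all genes tested passed. At an unadjusted limma p under 0.05 there were 3, all higher in KO: Serpinb9, Ctsc and Stx11. Among all genes tested, 6.01% were higher in KO at that p, 3.07% were lower and 9.08% differed in either direction. Values overlapped between the groups for Stx11 and for the other 7 genes, among them the abundant Nkg7, Ctsd, Ctsw and Cst7. The median log2 fold change of the 10 was 0.26, beside 0.041 over all genes tested, and 7 of the 10 were above 0, as were 55.2% of all genes tested. Fold changes here are KO over WT on the scale of log2(TPM + 1), which understates the change of low genes. In bulk libraries, fewer cells of a type and less RNA per cell cannot be told apart.

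**Figure D1:**
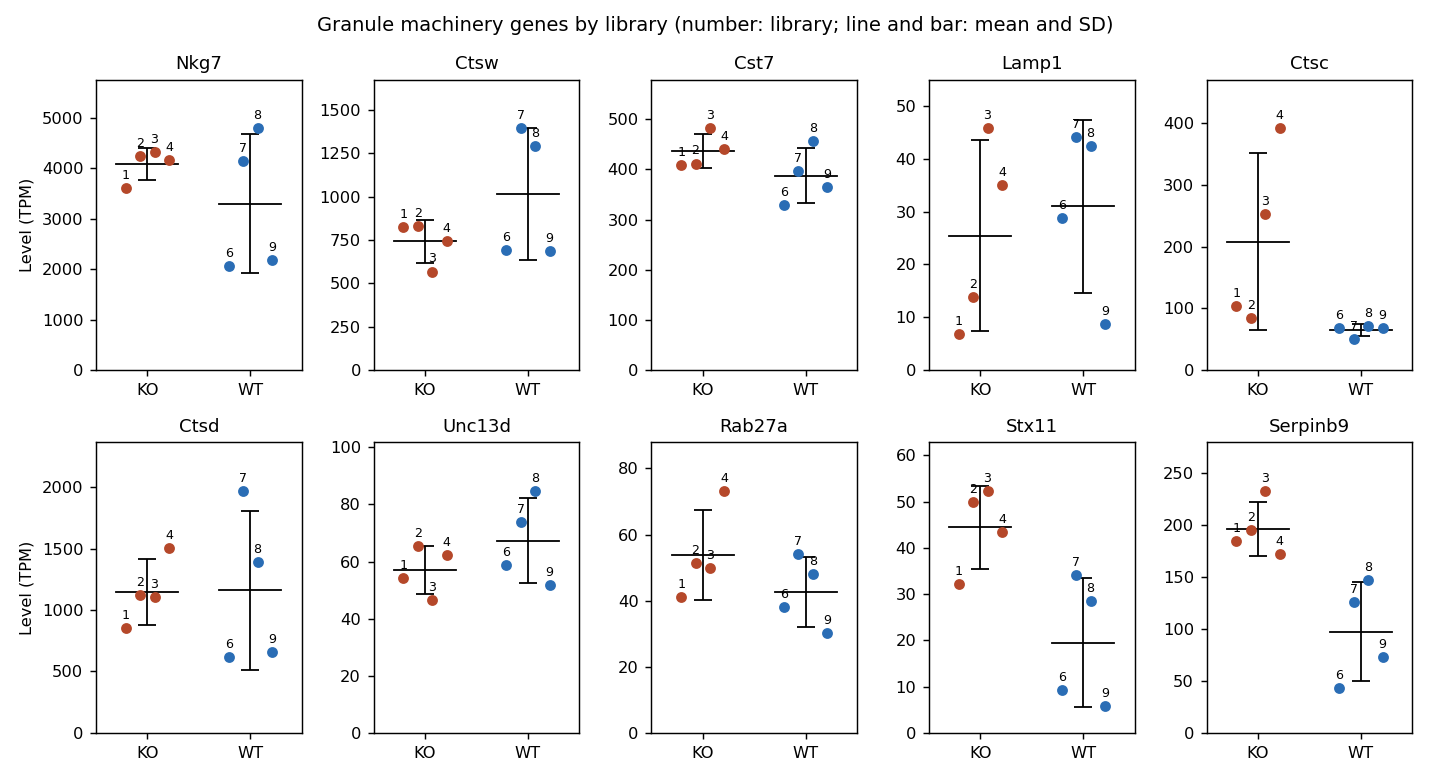
Level of each granule machinery gene in TPM (vertical axes start at 0) in 4 KO and 4 WT libraries, with library numbers beside the points and the mean and SD as black lines. For Serpinb9 and Ctsc the lowest KO point lies above the highest WT point, and WT 6 and WT 9 lie below WT 7 and WT 8 in every panel but that of Ctsc.

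Nkg7 was the most abundant, ranked 57 among all genes tested by its mean over the 8 libraries. If the deposited values were not corrected for gene length, this order and the shares below also depend on length. Ctsd (rank 130), Ctsw (166) and Cst7 (306) came next, followed by Serpinb9 (837), Ctsc (888), Unc13d (1930), Rab27a (2427), Stx11 (3323) and Lamp1 (3646). The ranges of library values did not overlap between Nkg7 and Ctsd, between Ctsw and Cst7 or between Cst7 and Serpinb9. All other neighbours in that order overlapped. Together the 10 genes took 0.613% to 0.764% of a KO library and 0.396% to 0.837% of a WT library, so the WT libraries enclosed the KO range on both sides.

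Among the inhibitors that restrain granule proteases, Serpinb9 was at 184, 195, 232 and 172 TPM in KO 1 to KO 4, against 43.1, 126, 147 and 72.8 TPM in WT 6 to WT 9. Every KO library lay above every WT library. Groups lay apart in this way, higher in KO, for 2 of the 10 genes (Serpinb9 and Ctsc) and for 2.62% of all genes tested, and for 0 of the 10 and 2.40% of all genes in the other direction. Serpinb9 averaged 196 ± 26.1 TPM in KO and 97.2 ± 47.7 TPM in WT cells (SD, n = 4 each), which gave a log2 fold change of 1.15 (SE 0.34, 95% interval 0.38 to 1.91, limma unadjusted p = 0.00789 and adjusted p = 0.421). The difference was smaller without the low WT libraries 6 and 9, at 0.51. Serpinb9 lies on chromosome 13 (mm10, 33003250 to 33017957) among close relatives of the same family, so reads may have been divided between copies and its level is uncertain to that extent. The relative Serpinb9b, looked at for this reason, was at 144, 248, 112 and 352 TPM in KO 1 to KO 4, against 13.4, 72.0, 33.3 and 134 TPM in WT 6 to WT 9. Its groups overlapped. Serpinb9c to Serpinb9g were at 1.21 TPM or less in every library.

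Cst7 encodes cystatin F, which enters granules and inhibits cathepsin C and related cysteine proteases. It was the steadiest of the 10 genes, at 409.6, 412, 482 and 441 TPM in KO 1 to KO 4, against 328, 398, 457 and 366 TPM in WT 6 to WT 9. The groups overlapped, with WT 8 above 3 of the KO libraries. The mean was 436 ± 33.9 TPM in KO and 387 ± 54.6 TPM in WT cells (SD, n = 4 each), and the log2 fold change of 0.18 had a 95% interval from -0.13 to 0.48. A change of the size seen in Serpinb9 lies outside that interval. Its direction turned with quantile normalization, to -0.0097. That setting moved the median fold change of all genes by -0.11, and relative to that setting's median of all genes Cst7 was at 0.056. Cst7 is on chromosome 2 (150570415 to 150578944).

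Of the proteases, Ctsc encodes cathepsin C (dipeptidyl peptidase I), which removes the N-terminal dipeptide of granzyme precursors. Ctsc was at 104, 84.0, 252 and 391 TPM in KO 1 to KO 4, against 68.3, 49.9, 71.5 and 67.7 TPM in WT 6 to WT 9. Every KO library was above every WT library, with KO 1 and KO 2 nearer to the highest WT value than KO 3 and KO 4. The mean was 208 ± 143 TPM in KO and 64.3 ± 9.76 TPM in WT cells (SD, n = 4 each), which gave a log2 fold change of 1.42 (SE 0.44, 95% interval 0.43 to 2.40, limma unadjusted p = 0.00978 and adjusted p = 0.440). Without KO 3 and KO 4 the log2 fold change was 0.55 (limma unadjusted p = 0.0317), and without KO 4 alone it was 1.02.

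KO 3 and KO 4 were also the libraries with high myeloid markers, and which cells the Ctsc RNA came from was not tested. Of 17 myeloid markers tested, 15 were highest in KO 3 and KO 4, as were 1 of the 10 granule machinery genes (Ctsc) and 14.2% of all genes tested. All 17 had a fold change above 0, with Cybb and Fcgr3 of smallest p (log2 fold changes 3.05 and 3.72). The whole list of 23 markers in the table summed to 4500.4 to 9777 TPM in KO and 2646 to 8165 TPM in WT libraries, most of it Ly6c2, which CD8 T cells also express (log2 fold change 0.18). Without Ly6c2 and Ccr2, a trimming made after the values were seen, the other 21 summed to 117, 109, 1954 and 4512 TPM in KO 1 to KO 4, against 22.4, 98.1, 51.4 and 108 TPM in WT 6 to WT 9. None of the 23 was at 0 in all 8 libraries, while 15 of the 21 were at 0 in WT 6. A further model held the mean log2 level of all 23 myeloid markers, Ly6c2 and Ccr2 included, as a term. This mean was 2.30 to 6.07 in KO and 1.24 to 2.33 in WT libraries, so the term and genotype were not independent. The log2 fold change of Ctsc was then 0.38 (limma unadjusted p = 0.232). Serpinb9 was at 1.02 (SE 0.47), Stx11 at 1.296 (SE 0.67) and Lamp1 at -1.40 (SE 0.71). With that term 0 of the 10 genes were at an unadjusted limma p under 0.05 (4.15% of all genes tested). KO 3 and KO 4 were both above KO 1 and KO 2 for 3 of the 10 genes, Cst7, Lamp1 and Ctsc (34.4% of all genes tested).

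Ctsw encodes cathepsin W, a cysteine protease found mainly in CD8 T cells and natural killer cells. It ran the other way from Ctsc, at 825, 828.9, 568 and 745 TPM in KO 1 to KO 4, against 693, 1394, 1293 and 684 TPM in WT 6 to WT 9. WT 7 and WT 8 were above every KO library, while WT 6 and WT 9 lay within the KO range. The mean was 742 ± 122 TPM in KO and 1016 ± 380.5 TPM in WT cells (SD, n = 4 each), and the log2 fold change of -0.39 had a 95% interval from -0.99 to 0.21. With all 8 libraries the limma unadjusted p was 0.176 in the main setting and 0.0172 with quantile normalization. That p was under 0.05 in 5 of the 24 alternatives, and the smallest limma adjusted p among them was 0.132. The fold change was negative in every setting tried. Without WT 6 and WT 9, the low WT libraries for Ctsw itself, it was -0.87 (limma unadjusted p = 0.00156). Ctsw (chromosome 19, 5465043 to 5468507, minus strand) shares exonic bases with Fibp on the plus strand. Fibp was at 25.4 to 35.7 TPM in KO and 20.8 to 35.4 TPM in WT libraries, far below Ctsw.

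Ctsd encodes cathepsin D, the main aspartic protease of lysosomes, and Lamp1 encodes a heavily glycosylated protein of the lysosome and granule membrane that appears on the cell surface (as CD107a) after granule release. In human cells both are known targets of the transcription factor TFEB, which binds E-boxes with the core CACGTG and drives lysosomal genes. The bases before the start site of each are shown because they carry this core more than once, taken from the RefSeq promoter table for GRCm38.p6, 250 bases each, 5′ to 3′ on the gene's own strand, with CACGTG in capitals.
Lamp1, chr8:13158911-13159160, plus strand: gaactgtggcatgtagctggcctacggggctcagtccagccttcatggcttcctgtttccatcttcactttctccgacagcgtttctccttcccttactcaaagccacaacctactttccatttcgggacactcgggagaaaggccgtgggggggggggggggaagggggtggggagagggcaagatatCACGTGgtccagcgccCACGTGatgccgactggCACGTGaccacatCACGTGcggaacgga
Ctsd, chr7:142387828-142388077, minus strand: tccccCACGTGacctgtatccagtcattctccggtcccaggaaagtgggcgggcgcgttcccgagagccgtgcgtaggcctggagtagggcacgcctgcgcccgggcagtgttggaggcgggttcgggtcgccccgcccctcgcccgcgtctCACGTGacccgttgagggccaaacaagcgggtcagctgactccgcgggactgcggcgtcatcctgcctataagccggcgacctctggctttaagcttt

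Lamp1 held 4 copies of CACGTG, beginning 61, 45, 28 and 15 bases before the start site, and Ctsd held 2, at 245 and 98 bases before it. In windows of 250 bases before to 50 after the start, CACGTG was found in 7.15% of 32851 RefSeq promoters and in 10.3% of those of tested genes, and 8 of the 32851 held 4 copies or more. Promoters were matched for 8 of the 10 genes. Besides Lamp1 and Ctsd, CACGTG was found only in the second of 2 windows of Rab27a. The RUNX core TGTGGT, read on both strands, was found in 5 of the 8 (Nkg7, Cst7, Lamp1, Rab27a and Serpinb9) and in 16.8% of all windows (13.2% for tested genes). The AP-1 motif TGANTCA, also read on both strands, was found in Cst7 and in 7.81% of all windows (4.99% for tested genes). The Lamp1 copy of TGTGGT, on the opposite strand, begins at the base after a CACGTG and overlaps none. Such matches describe the sequence and not binding.

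Ctsd was at 854, 1123, 1110.1 and 1505 TPM in KO 1 to KO 4, against 617, 1971, 1394 and 658 TPM in WT 6 to WT 9. The KO values lay inside the WT range, whose ends, WT 7 over WT 6, had a ratio of 3.19. The means were 1148 ± 268 TPM in KO and 1159.97 ± 648 TPM in WT cells (SD, n = 4 each). The log2 fold change of 0.13 had a 95% interval from -0.70 to 0.96, and its sign depended on the setting, with -0.12 without WT 6, -0.084 without WT 9, -0.0097 without KO 4 and -0.56 without both WT 6 and WT 9.

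Lamp1 was low and uneven, at 6.93, 13.9, 45.8 and 34.9 TPM in KO 1 to KO 4, against 28.9, 44.1, 42.4 and 8.65 TPM in WT 6 to WT 9. KO 1, KO 2 and WT 9 were the low libraries, so low values occurred in both groups. The means were 25.4 ± 18.1 TPM in KO and 31.0 ± 16.4 TPM in WT cells (SD, n = 4 each), with a log2 fold change of -0.38 and a 95% interval from -1.81 to 1.06. Without KO 1 it was 0.095. Lamp1 (chromosome 8, 13159161 to 13175338) shares exonic bases with Grtp1 on the other strand, which was at 0 to 0.421 TPM in KO libraries and listed at 0 in all WT libraries.

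Nkg7 encodes a small membrane protein of cytotoxic granules that mouse CD8 T cells need for efficient degranulation. Nkg7 was at 3618, 4244, 4319.97 and 4174 TPM in KO 1 to KO 4, against 2074, 4145, 4799.9 and 2179.5 TPM in WT 6 to WT 9. The KO libraries were close together, while the WT libraries formed a low pair (WT 6 and WT 9) and a high pair around the KO level. The means were 4089 ± 319.6 TPM in KO and 3299.7 ± 1381 TPM in WT cells (SD, n = 4 each), and the log2 fold change was 0.41 (95% interval -0.23 to 1.04). Without WT 6 and WT 9 it was -0.13.

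Of the release genes, Stx11 encodes syntaxin 11, the SNARE protein at the site of granule fusion. Stx11 was at 32.2, 49.9, 52.4 and 43.3 TPM in KO 1 to KO 4, against 9.35, 34.2, 28.5 and 5.90 TPM in WT 6 to WT 9. KO 1 lay below WT 7, so the groups overlapped by that library. The means were 44.5 ± 8.99 TPM in KO and 19.5 ± 14.0 TPM in WT cells (SD, n = 4 each), which gave a log2 fold change of 1.44 (SE 0.49, 95% interval 0.34 to 2.54, limma unadjusted p = 0.0157 and adjusted p = 0.473). Without WT 6 and WT 9 it was 0.47 (limma unadjusted p = 0.0761).

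Unc13d and Rab27a, which prime and dock the granules, differed less between the groups. Unc13d was at 54.1, 65.3, 46.4 and 62.3 TPM in KO 1 to KO 4, against 58.9, 73.8, 84.7 and 51.9 TPM in WT 6 to WT 9. Rab27a was at 41.2, 51.4, 49.96 and 73.2 TPM in KO 1 to KO 4, against 38.2, 54.0, 47.9 and 30.3 TPM in WT 6 to WT 9. Both genes overlapped between the groups, and their means leaned in opposite directions. The log2 fold change was -0.22 for Unc13d (95% interval -0.64 to 0.20) and 0.34 for Rab27a (-0.18 to 0.85). Neither interval reaches the 1.15 of Serpinb9 in either direction.

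The WT libraries split into a low and a high pair. WT 6 and WT 9 were both below WT 7 and WT 8 for 9 of the 10 genes (39% of all genes tested), Ctsc being the exception. They were the lowest pair of all 8 libraries for 6 of the 10: Nkg7, Cst7, Ctsd, Rab27a, Stx11 and Serpinb9 (17.3% of all genes tested). The SD of the log2 values was larger among WT than among KO libraries for 8 of the 10, Lamp1 and Ctsc excepted, as it was for 56.2% of all genes tested. These are the WT libraries with high naive and memory markers, where the mean log2 level of the 12 markers was 6.84 in both WT 6 and WT 9, against 4.90 in WT 7, 5.08 in WT 8 and 4.82 to 5.98 in KO libraries. The summed B and plasma cell markers were also higher, and the summed CD8 T cell markers lower, in WT 6 and WT 9 than in WT 7 and WT 8. The part of these markers in the granule gene values was not tested. Of the 11 granule effectors, WT 6 and WT 9 were the lowest pair for 4, Gzmb among them. Gzmb was at 2246 to 2804 TPM in KO libraries, 357 and 528 TPM in WT 6 and WT 9, and 1567 and 2644 TPM in WT 7 and WT 8. In Gzmf, by contrast, WT 9 (278 TPM) was above WT 7 (218 TPM) and WT 8 (71.9 TPM).

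**Figure D2:**
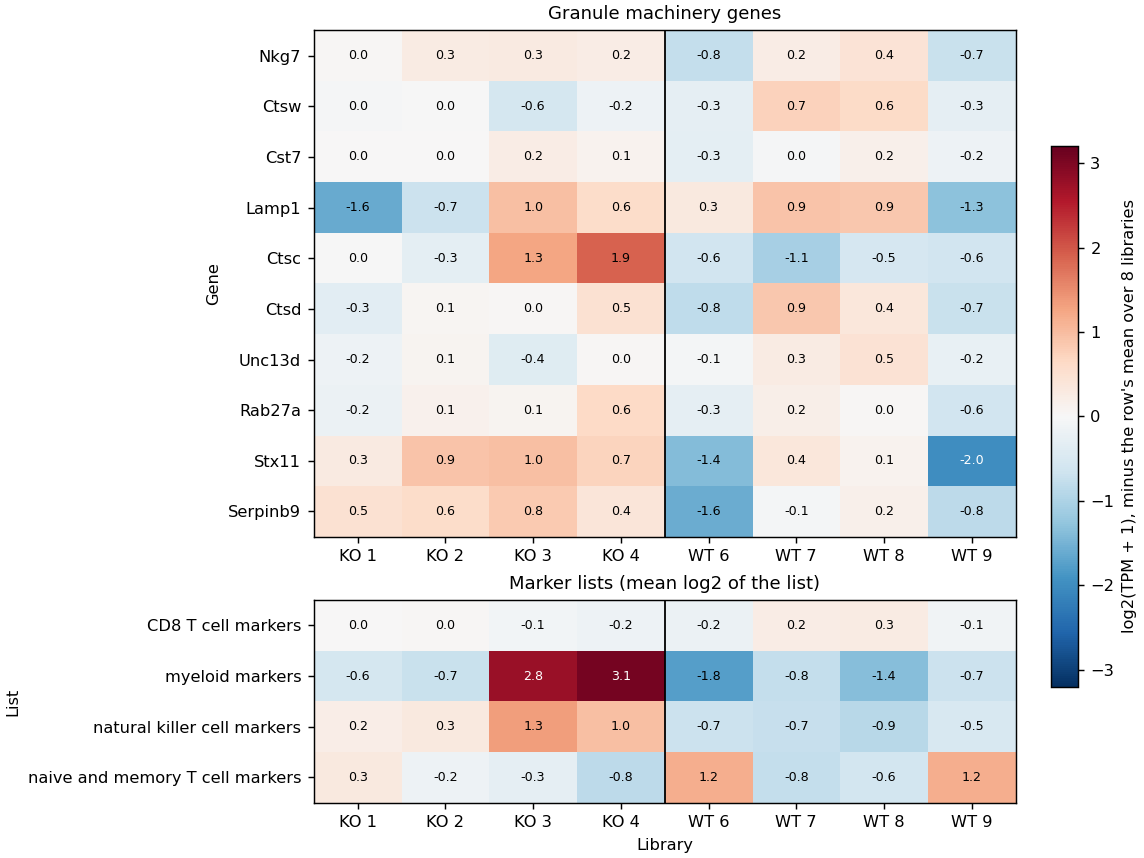
Each cell gives log2(TPM + 1) minus the row's mean over the 8 libraries, for the 10 granule machinery genes (top) and for the mean of 4 marker lists (bottom), with KO libraries left of the black line. Most granule genes are blue in WT 6 and WT 9, where naive and memory markers are red, and Ctsc is red in KO 3 and KO 4, where myeloid markers are red.

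Leaving out the libraries that stood apart changed which genes were under an unadjusted p of 0.05. WT 6 and WT 9 were below WT 7 and WT 8 for 9 of the 10 genes, so leaving them out lowers the fold changes of those 9. KO 3 and KO 4 were above KO 1 and KO 2 for Cst7, Lamp1 and Ctsc, so leaving them out lowers those fold changes. Without WT 6 and WT 9, 4 of the 10 genes were at an unadjusted limma p under 0.05 (9.56% of all genes tested): Serpinb9 and Ctsc higher, Ctsw (-0.87) and Unc13d (-0.48) lower in KO. Without KO 3 and KO 4 there were 2, Ctsc (0.55) and Serpinb9 (1.11), as against 4.08% of all genes tested, and Stx11 was at 1.32 (limma unadjusted p = 0.0827). Without all 4, only KO 1 and KO 2 were left to set against WT 7 and WT 8. There were then 5 genes (12.4% of all genes tested), with Ctsc (0.64) and Serpinb9 (0.48) higher and Ctsw (-0.70), Ctsd (-0.76) and Lamp1 (-2.02) lower. For Lamp1 both omissions lower the fold change, so its value here follows in part from which libraries were dropped. With the mean of the naive and memory markers as a term there were 6 (10.6% of all genes tested), Ctsc, Serpinb9 and Stx11 (0.98) higher and Ctsw, Ctsd and Unc13d lower. With libraries scaled to the CD8 T cell markers there were 4 (11.1% of all genes tested). None of these passed after adjustment. Serpinb9 and Ctsc were above 0 in every setting tried, as was Stx11, and Ctsw and Unc13d were below 0 in every setting. All 14 natural killer cell markers had a fold change above 0 (55.2% of all genes tested), with 8 higher at an unadjusted limma p under 0.05 (6.01% of all genes tested) and 0 past the adjusted threshold. Their sum was 298 to 2842 TPM in KO and 119 to 156 TPM in WT libraries. Most of the sum in KO 3 and KO 4 was Tyrobp and Fcer1g, which myeloid cells share, while the defining receptor gene Ncr1 was at 0.907 to 7.996 TPM in KO and 0 to 1.18 TPM in WT libraries (Tyrobp and Klra7 had the smallest p, with log2 fold changes of 3.39 and 1.41). Natural killer cells express Nkg7, Ctsw and Cst7, and the part of such cells in the levels here was not tested.

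**Figure D3:**
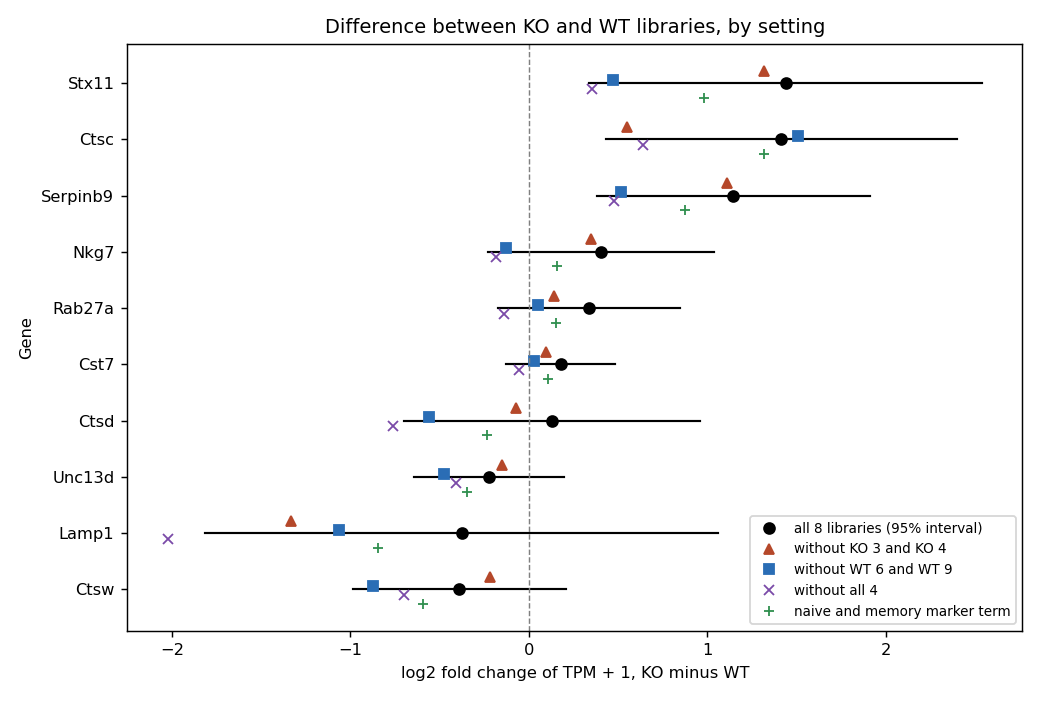
Log2 fold change (KO minus WT, log2 of TPM + 1) of each gene with all 8 libraries (black points with 95% intervals) and in 4 other settings (coloured marks). Stx11, Ctsc and Serpinb9 stay right of 0 and Ctsw, Unc13d and Lamp1 left of it in the settings drawn, while Nkg7, Rab27a, Cst7 and Ctsd lie on both sides.

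Other genes of the same machinery were read from lists set by function. The shares of all genes tested to set beside each list are 55.2% for a fold change above 0, 6.01% for higher and 3.07% for lower at an unadjusted limma p under 0.05, and 17.3% for WT 6 and WT 9 as the lowest pair. In the granule traffic and fusion list (SNAREs, tethers, motors and adaptors), 28 of 31 genes were tested, 21 had a fold change above 0, the median was 0.16, and 0 passed the adjusted threshold (2 higher and 1 lower at an unadjusted limma p under 0.05). WT 6 and WT 9 were the lowest pair for 10 of the 28. Vamp8, a SNARE of granule and endosome fusion, was at 320.5 ± 64.8 TPM in KO and 221 ± 57.0 TPM in WT cells, and Rab37, a secretory Rab GTPase, at 34.01 ± 11.8 TPM in KO and 54.8 ± 14.4 TPM in WT cells (SD, n = 4 each). Syt7 was listed at 0 in all 8 libraries.

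Of lysosomal enzymes and membrane proteins, 23 of 25 were tested and 20 had a fold change above 0, with a median of 0.53 and 0 past the adjusted threshold (6 higher, 0 lower at an unadjusted limma p under 0.05). KO 3 and KO 4 were the highest pair for 17 of the 23, against 14.2% of all genes tested. WT 6 and WT 9 were the lowest pair for 9 of the 23. KO 3 and KO 4 are the libraries with high myeloid markers, whose part in this list was not tested. Lamp2, the close relative of Lamp1, was at 68.3, 51.1, 139 and 129 TPM in KO 1 to KO 4, against 26.4, 42.7, 54.2 and 29.1 TPM in WT 6 to WT 9. Cd63, a tetraspanin of granule membranes, was at 2.08, 2.42, 65.5 and 127 TPM in KO 1 to KO 4, against 0 to 2.08 TPM in WT libraries. Ctsw, Ctsd and Lamp1 did not share this pattern, and Ctsc did.

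Of the protease inhibitors besides Cst7 and Serpinb9, 8 of 18 were tested, and all 8 had a fold change above 0, with a median of 1.31 and 0 past the adjusted threshold (6 higher at an unadjusted limma p under 0.05, as were 6.01% of all genes tested). WT 6 and WT 9 were the lowest pair for 6 of the 8. Serpinb6b, an intracellular serine protease inhibitor, was at 436, 444, 463 and 303 TPM in KO 1 to KO 4, against 101, 202, 247 and 142 TPM in WT 6 to WT 9, and its groups did not overlap. Serpinb1a, an inhibitor of neutrophil-type serine proteases, was at 12.9 ± 4.68 TPM in KO and 4.44 ± 3.57 TPM in WT cells (SD, n = 4 each). Its groups overlapped narrowly. Genes with low values were left out by the filter, so these 8 are not the whole family.

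Among 17 tested genes of TFEB and lysosome biogenesis, 16 had a fold change above 0, with a median of 0.28 and 0 past the adjusted threshold (3 higher at an unadjusted limma p under 0.05). WT 6 and WT 9 were the lowest pair for 10 of the 17. Atp6v1b2, a subunit of the proton pump that acidifies lysosomes, was at 80.9 ± 25.0 TPM in KO and 48.6 ± 2.93 TPM in WT cells, and Gnptab, which makes the mannose 6-phosphate tag that sorts enzymes to lysosomes, at 13.3 ± 3.97 TPM in KO and 7.63 ± 2.96 TPM in WT cells (SD, n = 4 each). Tfeb itself was at 5.47 to 7.78 TPM in KO libraries, against 0.813, 7.65, 4.51 and 3.54 TPM in WT 6 to WT 9. Of the 11 granule effectors, 10 had a fold change above 0 with a median of 0.78 and 0 past the adjusted threshold (3 higher at an unadjusted limma p under 0.05). WT 6 and WT 9 were the lowest pair for 4 of the 11. Their members of smallest p were Prf1 (log2 fold change 1.66) and Gzmf (2.45).

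**Figure D4:**
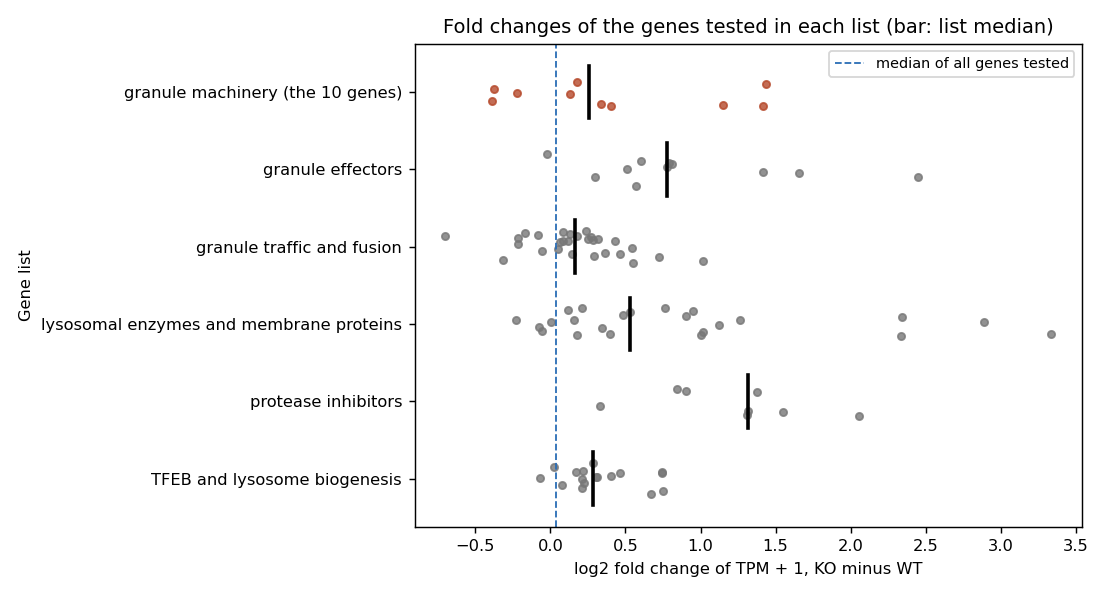
Log2 fold change (KO minus WT) of each gene tested in the granule machinery set and in 5 related lists, with the list median as a black bar and the median of all genes tested, 0.041, as a dashed line. The granule machinery genes spread from -0.39 to 1.44, and the protease inhibitors have the highest list median, 1.31.

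The 3 genes that varied most over the 8 libraries were Stx11, Lamp1 and Ctsc. For each, the genes with the most similar profile were sought among 8214 others with a mean of at least 5 TPM, by the root mean square difference of log2 values centred on each gene's mean over the 8 libraries. Nearest to Stx11 were Gem, a small GTPase (0.24), P2ry14, a receptor for nucleotide sugars (0.24), and Ppp1r3b, a regulator of glycogen metabolism (0.34). The KO libraries held 99.8 to 125 TPM of Gem, against 26.4 and 23.6 TPM in WT 6 and WT 9 and 94.5 and 102 TPM in WT 7 and WT 8. Gem was picked for its likeness to Stx11 over these libraries, so the shared low WT pair follows from the choice.

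Nearest to Lamp1 were Arrdc4, an arrestin relative (0.21), Stx6, a SNARE of the Golgi and endosomes (0.23), and Abhd12, a lipid hydrolase (0.26). Stx6 was at 6.93, 13.0, 36.8 and 22.3 TPM in KO 1 to KO 4, against 19.5, 28.3, 28.1 and 6.29 TPM in WT 6 to WT 9, so it was low in KO 1, KO 2 and WT 9 as Lamp1 was. Nearest to Ctsc were Tcn2, a vitamin carrier (0.30), Ctss, the cathepsin S of antigen-presenting cells (0.30), and Smox, a polyamine oxidase (0.31). Ctss was at 244, 167, 818 and 999 TPM in KO 1 to KO 4, against 179 to 257 TPM in WT libraries. A gene with a flat profile would lie at 1.02 from Stx11, 0.98 from Lamp1 and 0.96 from Ctsc. All of these genes were picked by likeness over the same 8 libraries, so their shared patterns and short distances follow from the choice.

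**Figure D5:**
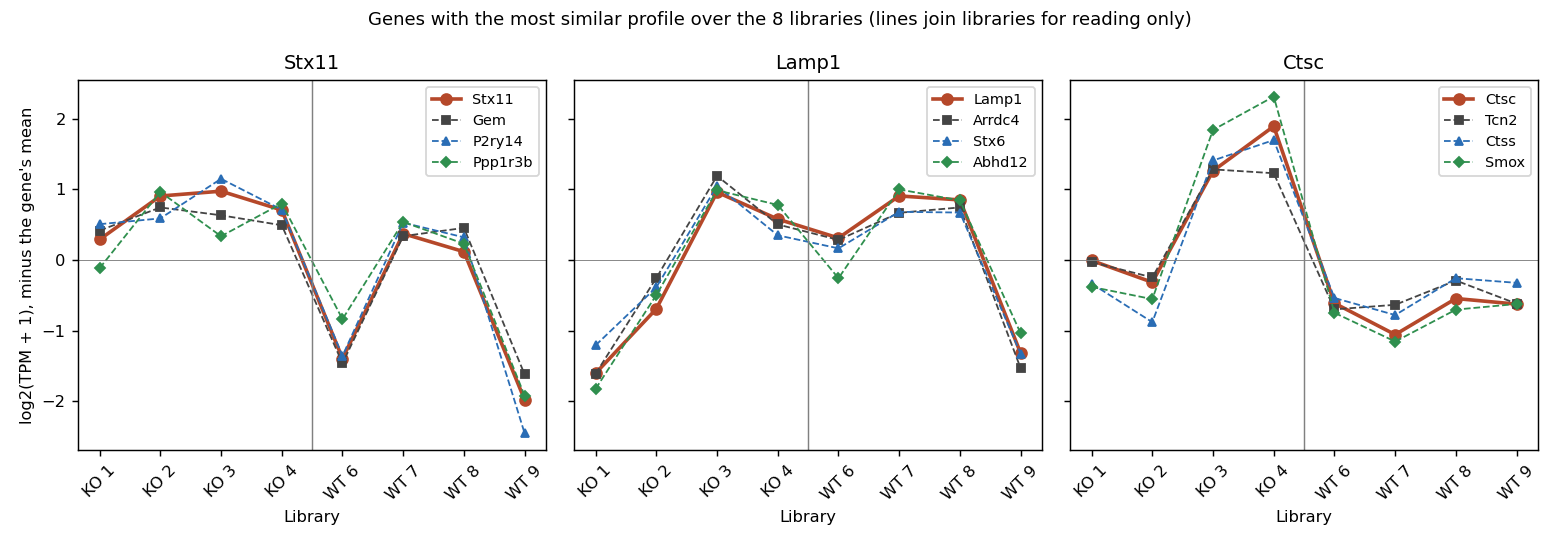
Log2(TPM + 1) minus each gene's mean over the 8 libraries for Stx11, Lamp1 and Ctsc (thick lines) and the 3 genes closest to each (dashed lines), with KO libraries left of the grey line. Stx11 and its neighbours dip in WT 6 and WT 9, Lamp1 and its neighbours in KO 1, KO 2 and WT 9, and Ctsc and its neighbours peak in KO 3 and KO 4.

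Of the 10 genes, 3 lie on chromosome 7, which also carries Pglyrp1, and all are far from it. Nkg7 (43437073 to 43438249) lies 24.5 Mb, Ctsc (88278085 to 88310888) 69.4 Mb and Ctsd (142375911 to 142388038) 123 Mb away in mm10. The others lie on chromosomes 2 (Cst7), 8 (Lamp1), 9 (Rab27a, 73044854 to 73097629), 10 (Stx11, 12938209 to 12964298), 11 (Unc13d, 116062095 to 116077961), 13 (Serpinb9) and 19 (Ctsw). No exons of another gene overlapped those of Nkg7, Cst7, Ctsc, Unc13d, Stx11 or Serpinb9 in GENCODE M21. Ctsd shares exonic bases with Gm49369 and Rab27a with the pseudogene Gm27186, neither analysed here, and whether strand was used in counting is not stated.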

How the data were processed

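The table holds 20029 genes and 8 libraries. The authors call the deposited score a TPM-normalized count. It is in whole numbers with library sums of 2223162 to 3342847, which plain TPM would not have. Whether it holds counts or a scaled TPM could not be settled. Per the labels' protocols, libraries came from a modified SMART-Seq2 method and Nextera XT with paired reads of 38 bases. RSEM 1.3.3 and mm10 are named in the submitters' processing notes, while aligner, annotation, use of strand and rounding were not given in the sources used here. Read depth is unknown, and counting error could not be computed. A unit of the score was worth 0.299 to 0.450 TPM.

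Libraries were scaled to 1000000 each (called TPM here). Genes reaching 1 TPM in 4 or more libraries, 10732 in all, were fitted on log2(TPM + 1) by genotype, using limma 3.58.1 under R 4.3.3 with a mean trend in the empirical Bayes step. P-values were adjusted over all of them by Benjamini-Hochberg at 0.05. This test was planned for TPM and kept. An exact two-sided permutation test per gene over 70 assignments, a second test of the same differences, gave its smallest possible p, 0.0286, for Serpinb9 and Ctsc. Every gene whose groups do not overlap gets that p, so it restates their separation. Groups were apart for 2.62% of all genes tested higher in KO and 2.40% lower. The 10 genes and all lists were chosen with earlier results of these data known, so no list was tested. All 10 genes are named. Each other list names members past the threshold or else the pair of smallest p, and marker lists their most abundant member. Serpinb9b to Serpinb9g, Gzmb, Ncr1, Fcer1g, Tfeb, Syt7 and genes overlapping or neighbouring the 10 in profile were named in addition, some after their values were seen. Of 194 list entries in 12 lists, 188 were in the table. Positions are from GENCODE M21 (GRCm38, the assembly of mm10). Python 3.11.15, pandas 2.3.3 and numpy 2.4.6 handled tables. Alternatives varied pseudocount, filter, scaling, limma options, marker terms and the libraries kept. Scaling to CD8 T cell markers was added after the data were seen.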

Additional observations from a re-analysis of the deposited data

Results flagged for a closer look

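The 4 values of each granule machinery gene in each genotype were checked for a lone library far from the others of its group, by its gap relative to the group's range. Of 20 such groups 0 were marked, where chance would mark about 1.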

How the results depend on the processing

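No paired analysis was possible because no number is shared: KO runs from 1 to 4, WT from 6 to 9. The 10 granule machinery genes past the adjusted threshold numbered 0 in all 24 alternatives. At an unadjusted limma p under 0.05 there were 3 with all libraries (9.08% of all genes tested), 3 to 4 with 1 library left out (all genes 5.51% to 11.3%), 5 when scaled without ribosomal and the 20 most abundant genes (10.4%), 0 with the myeloid marker term (4.15%), 6 with the naive and memory marker term (10.6%) and 5 without KO 3, KO 4, WT 6 and WT 9 (12.4%); the cause was not tested. Their median log2 fold change was 0.16 to 0.45 with 1 library left out and -0.16 without those 4. Leaving out those 4 keeps only KO 1 and KO 2 against WT 7 and WT 8. Over all genes, 3 passed; 1 to 3 passed with 1 library left out (1 without each of WT 6, WT 7, WT 8 and WT 9), 1 without KO 3 and KO 4, and 10 without all 4. Quantile normalization moved the median fold change of all genes by -0.11 and scaling without ribosomal and the 20 most abundant genes by -0.12. Relative to the median of all genes in the same setting, Ctsd was at 0.022 and 0.072 in these settings, and Cst7 at 0.056 with quantile normalization.

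Directions turned as follows. Nkg7 was at -0.13 without WT 6 and WT 9 and -0.19 without all 4. Cst7 was at -0.0097 with quantile normalization and -0.054 without all 4, and Rab27a at -0.14 without all 4. Lamp1 was at -0.88 to 0.095 with 1 library left out. Ctsd was at -0.12 to 0.44 with 1 library left out, -0.044 with quantile normalization, -0.0027 when scaled without ribosomal and the 20 most abundant genes, -0.19 and -0.24 with the myeloid and the naive marker terms, -0.070 without KO 3 and KO 4, -0.56 without WT 6 and WT 9 and -0.76 without all 4. Low genes such as Lamp1 and Stx11 rest on few units of the deposited score, and with 4 libraries a group the intervals are wide.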
